A study of Rattus norvegicus with 8 samples.

Results

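The mitochondrial carrier family, Slc25, was followed in the kidneys of rats kept on a diet very low in silicon (Si). Its members were the genes of the array's annotation whose symbol is Slc25a and a number. Each was read from 1 probe set, the one with the highest mean over the 8 arrays, among probe sets with exactly 1 symbol. This gave 39 members of 14217 named genes. Another 2 probe sets carry a carrier symbol against more than one gene and were left out.

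Daily Si intake per kg body weight was 0.17 mg in Si deplete rats and 4.1 mg in Si replete rats. All were female Sprague-Dawley rats, fed the diets for 26 weeks and aged 29 weeks. Both diets shared the same low-Si feed, and the Si replete rats received orthosilicic acid in their drinking water. Each Affymetrix array received RNA from the whole ground left kidney of 1 rat, with 4 rats per diet. The deposited values are log2 levels from gcRMA, a method that corrects background by the GC content of the probes and scales the arrays together. A difference of 1 on this scale is a 2-fold difference. Rats are numbered by the replicate numbers of the labels, within each diet. Levels of different probe sets cannot be set against each other, since probes differ in brightness.

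Mitochondrial carriers are small proteins of the inner mitochondrial membrane, each built from a tandem repeat of a shared unit. They move the metabolites, nucleotides and cofactors that the matrix exchanges with the cytosol. They supply the citric acid cycle, the urea cycle, oxidative phosphorylation and the synthesis of haem. The proximal tubule of the kidney is rich in mitochondria, on which its reabsorption of solutes depends. A few members act elsewhere, in the peroxisome or the outer mitochondrial membrane.

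Whole kidney RNA averages over all cell types, so that fewer cells of a type and less RNA per cell cannot be told apart. All 13 proximal tubule markers on the list were measured, each at a mean log2 level of 8.02 or more. Of 6 skeletal muscle markers 5 had a mean under 4, but Myh1 was at 11.59. Because probes differ in brightness, these levels do not measure the share of either tissue. Si deplete replicate 1 stood apart on the first principal component of all probe sets, at 64.0 against -1.94 to 19.2 in the other Si deplete arrays and -25.9 to -18.8 in the Si replete arrays. All 9 tubule injury markers measured had higher means in Si deplete kidneys, 8 of them with no overlap between diets, beside 6.45% of all named genes with every Si deplete array above. Their median log2 fold change was 1.17, and none passed (adjusted p of 0.12 or more from limma). By Storey's q-value, 3 of them were under 0.1, namely Spp1 (0.0859), Cd44 (0.089) and Havcr1 (0.0955).

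No carrier passed the test. Of the 39 members, 0 were higher and 0 were lower in Si deplete kidneys at an adjusted p under 0.1 (limma, Benjamini-Hochberg adjustment over 31042 probe sets). Over all probe sets, 0.113% were called higher and 0.0387% lower, so few probe sets of any kind were called. At an unadjusted p under 0.05, 2 members were higher and 6 were lower. These are 5.13% and 15.4% of the family, beside 10.5% and 7.95% of all named genes, so that the share higher was below the background and the share lower above it. The mean log2 level was lower in Si deplete kidneys for 26 of the 39 members, or 66.7%, against 50.0% of all genes. The median log2 fold change was -0.08 in the family and 0.000131 over all genes. The family's median was -0.14 without probe sets of a mean under 4 and also -0.14 with each array's median subtracted, which put the median of all genes at -0.06. The split by sign depended on scaling, with 32 members lower after each array's median was subtracted and 23 lower after quantile normalization. The smallest adjusted p of a member was 0.19.

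**Figure D1:**
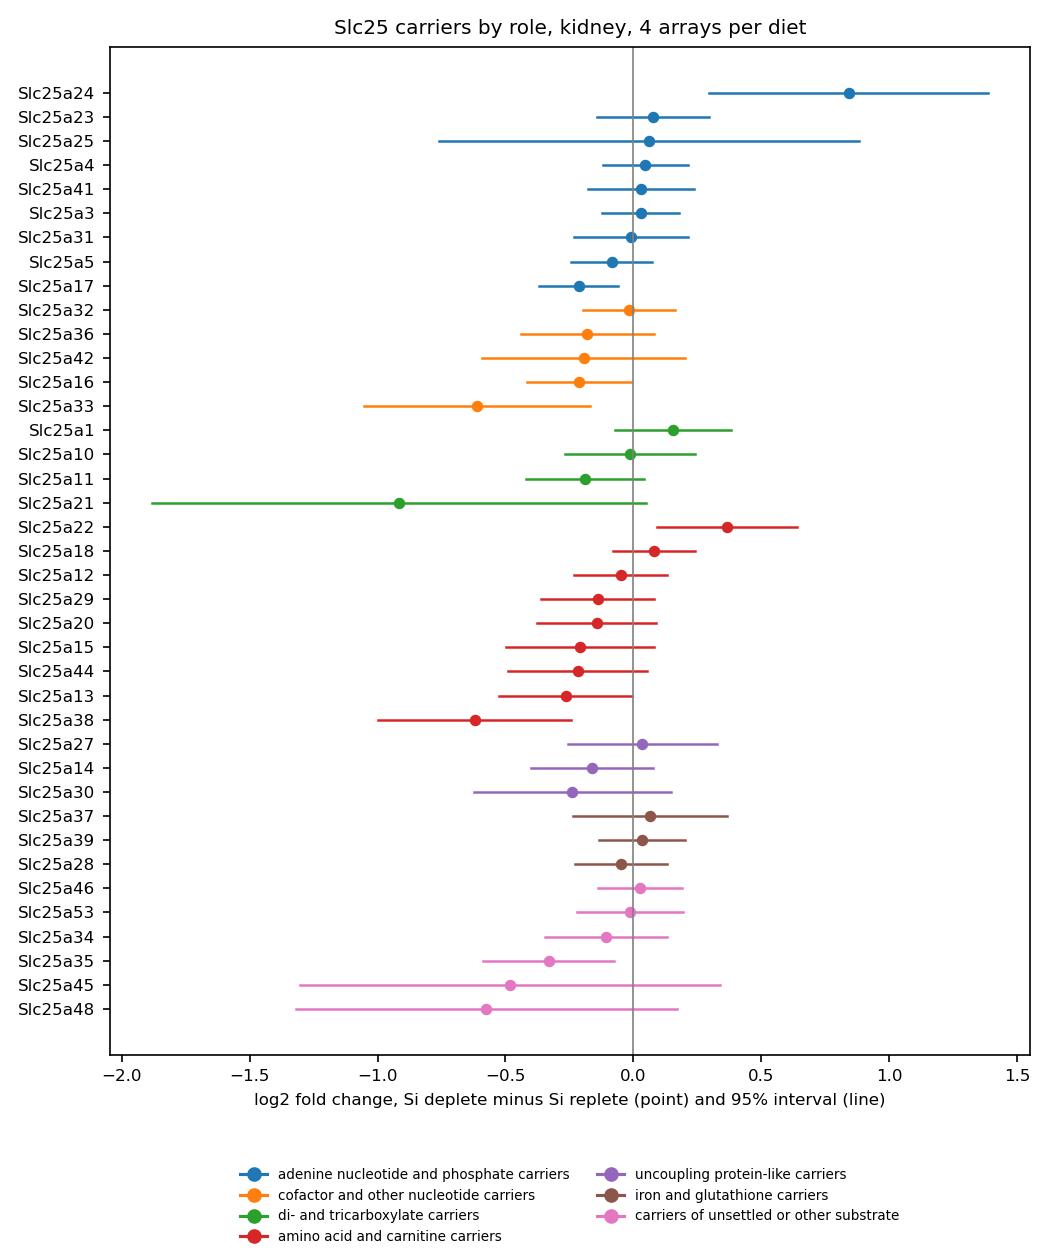
Difference in log2 level between Si deplete and Si replete kidneys for the 39 Slc25 carriers, grouped and coloured by role; points are estimates and lines 95% intervals from limma, with 4 arrays per diet. Slc25a24 has the highest estimate, 0.84, and Slc25a21 the lowest, -0.92, with an interval that reaches 0.05.

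In 2 members every Si deplete array lay above every Si replete array, and in another 2 every one lay below. These were Slc25a24 and Slc25a22, and Slc25a33 and Slc25a17. Each pair is 5.13% of the family, beside 6.45% and 5.49% of all named genes, which is near the background. Dropping a single array can only raise these counts or leave them unchanged. In the Si deplete group, dropping replicate 3 gave 3 members above and 5 below. Dropping replicate 4 gave 3 above and 4 below, and dropping replicate 1 left 2 of each. In the Si replete group, the count below was 6 on dropping replicate 2 and 4 on dropping replicate 1 or 4. No share of all named genes is given for these smaller sets of arrays, so the counts have no background.

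The promoters of the 4 carriers that separated the diets are printed because these were the members with no overlap. RefSeq promoters of the build GRCr8 were matched for 34 of the 39 members, and the 250 bases before the start site are given, 5′ to 3′ in the direction of the gene. Capitals mark matches on either strand to 5 short motifs, namely the E-box CACGTG, the cAMP response element TGACGTCA, the half-site AAGGTCA of estrogen-related receptors, the CCAAT box CCAAT and the GC box GGGCGG. The motifs were searched separately, and their matches may overlap.
Slc25a24, chr2:199449175-199449424, plus strand: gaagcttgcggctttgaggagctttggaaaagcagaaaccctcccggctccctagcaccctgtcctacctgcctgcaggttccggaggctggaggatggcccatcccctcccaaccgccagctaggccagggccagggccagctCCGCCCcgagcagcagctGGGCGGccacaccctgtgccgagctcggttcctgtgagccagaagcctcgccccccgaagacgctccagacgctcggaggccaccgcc
Slc25a22, chr1:205965878-205966127, minus strand: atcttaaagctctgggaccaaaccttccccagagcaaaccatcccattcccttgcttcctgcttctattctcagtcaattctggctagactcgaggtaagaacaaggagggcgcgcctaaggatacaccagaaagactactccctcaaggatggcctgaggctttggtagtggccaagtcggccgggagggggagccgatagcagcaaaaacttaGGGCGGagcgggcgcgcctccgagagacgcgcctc
Slc25a33, chr5:165502974-165503223, minus strand: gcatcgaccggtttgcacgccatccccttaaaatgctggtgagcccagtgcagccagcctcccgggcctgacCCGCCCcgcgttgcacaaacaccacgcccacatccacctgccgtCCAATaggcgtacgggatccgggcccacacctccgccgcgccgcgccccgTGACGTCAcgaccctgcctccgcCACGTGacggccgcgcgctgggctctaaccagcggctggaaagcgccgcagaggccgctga
Slc25a17, chr7:114767164-114767413, minus strand: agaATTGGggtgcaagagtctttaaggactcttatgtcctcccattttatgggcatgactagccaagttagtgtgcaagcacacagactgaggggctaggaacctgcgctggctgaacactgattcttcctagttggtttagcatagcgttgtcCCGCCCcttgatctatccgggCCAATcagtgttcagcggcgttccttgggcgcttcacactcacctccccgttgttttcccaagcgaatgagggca
The windows of Slc25a24 and Slc25a22, whose levels were higher in Si deplete kidneys, held GC boxes alone, 2 and 1. That of Slc25a33, whose level was lower, held 1 match each to the E-box, the cAMP response element, the CCAAT box and the GC box. That of Slc25a17, also lower, held 2 CCAAT boxes and 1 GC box. GC boxes alone were also held by windows of members whose diets overlapped, such as Slc25a3, Slc25a5 and Slc25a39. Of the 34 members, 8.82% held the E-box, beside 5.59% of 33469 promoters of the same length. The shares were 5.88% and 1.59% for the cAMP response element, 2.94% and 3.99% for the AAGGTCA half-site, 52.9% and 34.0% for the CCAAT box, and 61.8% and 30.5% for the GC box. The 33469 promoters outnumber the 14217 named genes, so this background is wider than that of the other shares. GC content, 40.8% to 76.4% in the members' windows, was not matched between the sets. These matches describe letters in the window, not bound factors.

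The carriers of adenine nucleotides and phosphate, a group that includes the peroxisomal Slc25a17, showed no common direction. Of 9 measured, 6 had higher and 3 had lower means in Si deplete kidneys, with a median log2 fold change of 0.03. The mean level was under 4 in 2 of the 9. Slc25a24 and Slc25a17 stood out, in opposite directions. At an unadjusted p under 0.05, 1 of the 9 was higher and 1 was lower, beside 10.5% and 7.95% of all named genes. None of the 9 passed after adjustment.

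Slc25a24 encodes a carrier that exchanges ATP-Mg for phosphate across the inner membrane and is gated by calcium. Log2 levels were 9.39, 8.13, 8.31 and 8.70 in Si deplete rats 1 to 4, against 7.98, 7.70, 7.67 and 7.82 in Si replete rats 1 to 4. The groups did not overlap, and Si deplete replicate 1 was the highest array. The means were 8.63 ± 0.56 (SD) in the Si deplete and 7.79 ± 0.14 (SD, n = 4 each) in the Si replete group, a log2 fold change of 0.84 (standard error, SE, 0.24, 95% interval 0.30 to 1.39) or 1.79-fold. The exact permutation test gave a 2-sided p of 0.0286, the smallest that 4 against 4 arrays allow. Groups without overlap always give this value, so it adds nothing to the lack of overlap. The limma adjusted p was 0.206. Without Si deplete replicate 1 the log2 fold change was 0.59.

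Its relatives are the other ATP-Mg and phosphate carriers, Slc25a23, Slc25a25 and Slc25a41. Slc25a23 was at 9.74 ± 0.10 in the Si deplete and 9.66 ± 0.15 in the Si replete group (SD, n = 4 each), a log2 fold change of 0.08 (95% interval -0.14 to 0.30). The gap in log2 level between Slc25a24 and Slc25a23 within an array was narrower in Si deplete kidneys by 0.76 (SE 0.31). Its exact permutation p was 0.0571, or 0.171 adjusted over the 4 pairs of relatives compared, which were chosen after their values were seen. Slc25a25 varied widely from kidney to kidney, at 8.02, 9.49, 8.56 and 8.03 in Si deplete rats, against 8.75, 8.46, 7.69 and 8.96 in Si replete rats 1 to 4. The diets overlapped widely, and the interval of its difference was -0.76 to 0.88. The gap between Slc25a24 and Slc25a25 differed by 0.78 between diets (SE 0.63, exact permutation p = 0.286, adjusted p = 0.286). Slc25a41 had a mean log2 level under 4, at the dim end of the scale, and a log2 fold change of 0.03 (95% interval -0.18 to 0.24).

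Slc25a17 is the carrier of the peroxisome, which takes up coenzyme A and adenine nucleotides there. It was at 10.11, 10.10, 10.13 and 10.20 in Si deplete rats 1 to 4, against 10.41, 10.32, 10.38 and 10.30 in Si replete rats 1 to 4. The groups did not overlap and were both narrow. The log2 fold change was -0.21 (SE 0.07, 95% interval -0.37 to -0.06), a level 1.16-fold lower, with an adjusted p of 0.227 from limma.

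The major carriers of oxidative phosphorylation differed little. Slc25a3, the phosphate carrier that supplies ATP synthase, was at 12.74 ± 0.05 in the Si deplete and 12.71 ± 0.02 in the Si replete group (SD, n = 4 each). Its log2 fold change of 0.03 had a 95% interval of -0.12 to 0.18. The adenine nucleotide translocases Slc25a4, abundant in heart and muscle, and Slc25a5, found in most tissues, had log2 fold changes of 0.05 (95% interval -0.12 to 0.21) and -0.08 (95% interval -0.24 to 0.07). The signs of Slc25a3 and Slc25a4 turned when each array's median was subtracted. Slc25a31, the translocase of the germ line, had a mean under 4 and a log2 fold change of -0.00978 (95% interval -0.23 to 0.21).

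**Figure D2:**
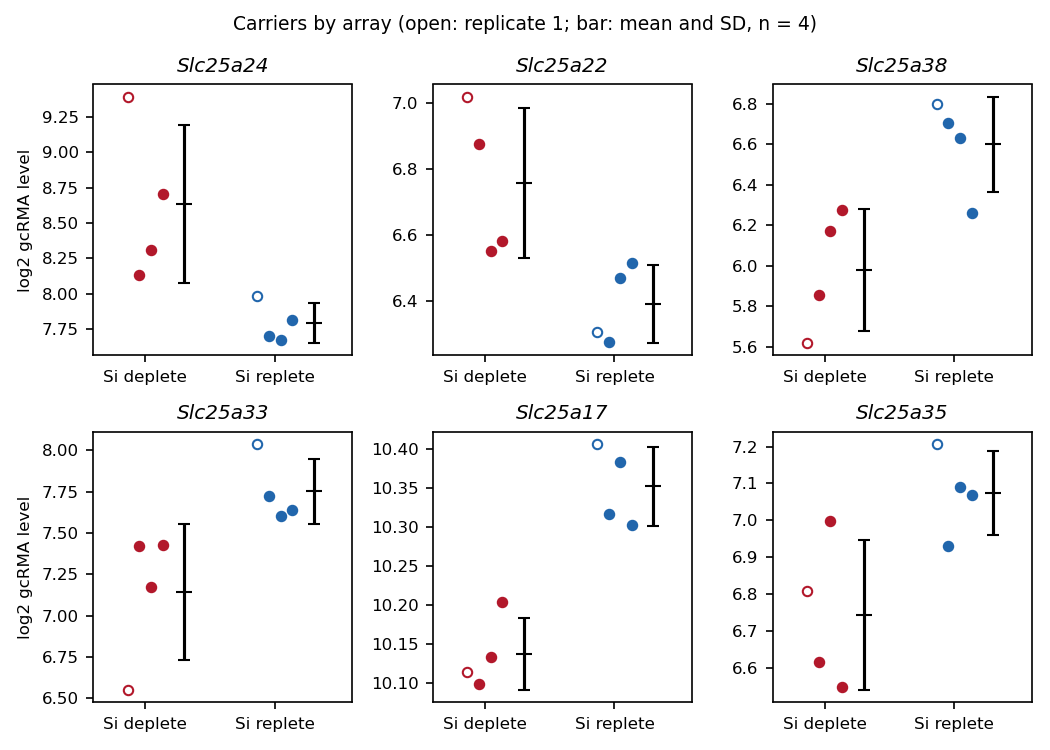
Log2 gcRMA levels of 6 carriers in each kidney, Si deplete (red, left) and Si replete (blue, right); points are arrays, open for replicate 1, with horizontal bars at the mean and vertical bars of 1 SD (n = 4). The diets do not overlap for Slc25a24, Slc25a22, Slc25a33 and Slc25a17, whereas 1 Si deplete array lies within the Si replete range for Slc25a38 and Slc25a35.

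All 5 carriers of cofactors and of other nucleotides had lower means in Si deplete kidneys, with a median log2 fold change of -0.19. Of these, 2 were lower at an unadjusted p under 0.05, beside 7.95% of all named genes, and none passed. The median was -0.17, with 4 of the 5 lower, without Si deplete replicate 1.

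Slc25a33 carries pyrimidine nucleotides into the matrix, where they serve the synthesis of mitochondrial DNA and RNA. Its levels were 6.55, 7.42, 7.17 and 7.43 in Si deplete rats 1 to 4, against 8.04, 7.73, 7.60 and 7.64 in Si replete rats 1 to 4. Si deplete replicate 1 was the lowest of the 8, and the groups did not overlap. The means were 7.14 ± 0.41 (SD) in the Si deplete and 7.75 ± 0.20 (SD, n = 4 each) in the Si replete group, a log2 fold change of -0.61 (SE 0.20, 95% interval -1.05 to -0.17). The Si deplete level was 1.53-fold lower (limma, adjusted p = 0.227), and the log2 fold change was -0.41 without Si deplete replicate 1. Of the 4 promoter windows printed, that of Slc25a33 alone held the E-box and the cAMP response element. Among windows not printed, that of Slc25a25 (log2 fold change 0.06) also held the cAMP response element, and those of Slc25a31 and Slc25a48 the E-box. Slc25a36, the other pyrimidine nucleotide carrier, had a log2 fold change of -0.18 (95% interval -0.44 to 0.08) and one of -0.05 on its second probe set. The gap between Slc25a33 and Slc25a36 differed by -0.43 between diets (SE 0.29, exact permutation p = 0.229, adjusted p = 0.286).

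Slc25a16, which has been linked to coenzyme A in mitochondria, was at 8.64, 8.68, 8.85 and 8.94 in Si deplete rats, against 8.95, 8.92, 9.07 and 9.02 in Si replete rats 1 to 4. Only Si deplete replicate 4 lay within the Si replete range. Its log2 fold change was -0.21 (SE 0.09, adjusted p = 0.321 from limma). Slc25a42, the coenzyme A carrier, had one of -0.19 (95% interval -0.59 to 0.20). Slc25a32, which carries folate or flavin, had a mean under 4 and a log2 fold change of -0.02.

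Among the 9 carriers of amino acids and carnitine, 7 had lower means in Si deplete kidneys and the median log2 fold change was -0.14. At an unadjusted p under 0.05, 1 was higher, Slc25a22, and 2 were lower, Slc25a38 and Slc25a13, beside 10.5% and 7.95% of all named genes. None passed.

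Slc25a38 imports glycine into mitochondria for the first step of haem synthesis, and its loss in people causes a sideroblastic anaemia. The log2 levels were 5.62, 5.85, 6.17 and 6.28 in Si deplete rats 1 to 4, against 6.80, 6.71, 6.63 and 6.26 in Si replete rats 1 to 4. The groups overlapped by a single kidney of each diet. The means were 5.98 ± 0.30 (SD) in the Si deplete and 6.60 ± 0.24 (SD, n = 4 each) in the Si replete group, a log2 fold change of -0.62 (SE 0.17, 95% interval -1.0 to -0.24). The limma p was the smallest of the family, with an adjusted p of 0.19. The exact permutation test gave a 2-sided p of 0.0571.

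Genes of red blood cells also had lower means. Alas2, the haem synthesis enzyme of the red cell lineage, was at 6.63, 8.16, 5.98 and 5.75 in Si deplete rats, against 8.03, 8.65, 7.45 and 7.57 in Si replete rats 1 to 4. Si deplete replicate 2 lay within the Si replete range. The 3 of 5 listed blood cell markers that were measured, Alas2, Hbb and Slc4a1, the last also made by cells of the collecting duct, had lower means in Si deplete kidneys, with log2 fold changes of -1.29, -0.42 and -0.26 and unadjusted p-values under 0.05 for the first 2 (limma, adjusted p of 0.283 or more). Over all named genes, 7.95% were lower at an unadjusted p under 0.05. The mean of the 3 blood cell markers, relative to all arrays, was between -0.72 and 0.32 in Si deplete kidneys, against 0.09 to 0.70 in Si replete kidneys. The part of blood cells in the Slc25a38 difference was not tested. Slc25a37, the mitoferrin that brings iron to haem synthesis in red cell precursors, had a log2 fold change of 0.06 (95% interval -0.24 to 0.36).

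Slc25a22 moves glutamate together with protons. Its transcript was at 7.02, 6.88, 6.55 and 6.58 in Si deplete rats 1 to 4, against 6.31, 6.28, 6.47 and 6.52 in Si replete rats 1 to 4. The groups did not overlap, but the nearest arrays were 6.55 in Si deplete and 6.52 in Si replete kidneys. The log2 fold change was 0.37 (SE 0.12, 95% interval 0.09 to 0.64, limma adjusted p = 0.238), a level 1.29-fold higher. Slc25a18, the other glutamate carrier, had a mean under 4 and a log2 fold change of 0.08 (95% interval -0.08 to 0.24).

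Slc25a13 and Slc25a12 are the aspartate and glutamate carriers of the malate-aspartate shuttle, Slc25a13 being citrin, the form of liver and kidney. Slc25a13 was at 10.23, 10.52, 10.70 and 10.49 in Si deplete rats, against 10.66, 10.61, 10.86 and 10.87 in Si replete rats 1 to 4. Si deplete replicate 3 alone lay within the Si replete range. That made a difference of -0.27 (SE 0.11, limma adjusted p = 0.326). On its second probe set it was -0.53 (SE 0.18, adjusted p = 0.238). Slc25a12, typical of heart and brain, had a log2 fold change of -0.05 (95% interval -0.23 to 0.13). The gap between the pair differed by -0.22 between diets (SE 0.09, exact permutation p = 0.0857, adjusted p = 0.171).

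Slc25a15, the ornithine carrier of the urea cycle, was measured by 6 probe sets, more than any other member. Their log2 fold changes were -0.21 on the one with the highest mean and -0.48, -0.38, -0.28, -0.29 and -0.08 on the others, the last with a mean under 4. On the first of them the levels were 10.47, 10.98, 10.98 and 10.93 in Si deplete rats, against 11.05, 10.91, 11.05 and 11.19 in Si replete rats 1 to 4. Si deplete replicate 1 lay below the rest, and the log2 fold change without it was -0.08. Probe sets of one gene share the RNA of the same kidneys, so their common sign is no added replication.

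The remaining members of this group were Slc25a20, the carnitine and acylcarnitine carrier that feeds fatty acid oxidation, Slc25a29, a carrier of basic amino acids, and Slc25a44, a carrier of branched-chain amino acids in brown fat. Their log2 fold changes were -0.14, -0.14 and -0.22, and limma gave adjusted p-values of 0.426 to 0.541. In all 3 the diets overlapped.

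The 4 carriers of dicarboxylates and tricarboxylates had a median log2 fold change of -0.10, and none reached an unadjusted p under 0.05. Slc25a21, which carries oxoadipate and oxoglutarate in the breakdown of lysine and tryptophan, had the lowest estimate of the family. Its log2 level was 3.84, 4.31, 5.10 and 5.69 in Si deplete rats, against 5.52, 5.60, 6.52 and 4.96 in Si replete rats 1 to 4. The highest Si deplete array lay above all but 1 of the Si replete arrays. The log2 fold change was -0.92 (SE 0.43, 95% interval -1.88 to 0.05), and it was -0.62 without Si deplete replicate 1 (-1.23 without Si deplete replicate 4). Slc25a11, the oxoglutarate and malate carrier, had a log2 fold change of -0.19 (95% interval -0.42 to 0.04), Slc25a1, the citrate carrier, one of 0.15 (95% interval -0.07 to 0.38), and Slc25a10, the dicarboxylate carrier, one of -0.01 (95% interval -0.27 to 0.24) and of -0.23 on its second probe set.

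Of the 3 carriers named for their likeness to uncoupling proteins, Slc25a30 was first described in kidney and is also called kidney mitochondrial carrier protein. Its log2 level was 9.81, 9.94, 10.35 and 9.88 in Si deplete rats, against 9.89, 10.10, 10.61 and 10.32 in Si replete rats 1 to 4. The diets overlapped, with a log2 fold change of -0.24 (95% interval -0.62 to 0.15) and one of -0.34 on its second probe set. Leaving out Si deplete replicate 3 made it -0.36, whereas leaving out Si replete replicate 3 made it -0.11. Slc25a14, read by a probe set that can also detect related sequences, had one of -0.16 (95% interval -0.40 to 0.08). Slc25a27 had a mean under 4 on all 3 of its probe sets and a log2 fold change of 0.04 on the one used.

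The 3 carriers of iron and glutathione differed least. Slc25a39, a glutathione carrier, had a log2 fold change of 0.03 (95% interval -0.13 to 0.20), and Slc25a28, the mitoferrin of most tissues, one of -0.05 (95% interval -0.23 to 0.13). None of the 3 reached an unadjusted p under 0.05.

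Of the 6 carriers of unsettled or other substrate, 5 had lower means in Si deplete kidneys, with a median log2 fold change of -0.22. Slc25a35, whose substrate is not settled, was at 6.81, 6.62, 7.0 and 6.55 in Si deplete rats, against 7.21, 6.93, 7.09 and 7.07 in Si replete rats 1 to 4. Only Si deplete replicate 3 lay within the Si replete range. Its log2 fold change was -0.33 (SE 0.11, 95% interval -0.59 to -0.08, limma adjusted p = 0.246). Slc25a48 was at 8.19, 8.98, 9.52 and 9.75 in Si deplete rats, against 10.15, 9.77, 9.19 and 9.62 in Si replete rats 1 to 4. The log2 fold change was -0.57 (SE 0.33) on this probe set and -0.56 (SE 0.38) on the other. The Si deplete kidneys were spread over more than a 2-fold range, and without Si deplete replicate 1 the log2 fold change was -0.27. Slc25a45 had one of -0.48 (95% interval -1.30 to 0.34), which was -0.73 without Si deplete replicate 3 and -0.23 without Si deplete replicate 4. Slc25a34 had one of -0.11, Slc25a46, a protein of the outer membrane that takes part in fission and lipid transfer, one of 0.02, and Slc25a53, with a mean under 4, one of -0.01.

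**Figure D3:**
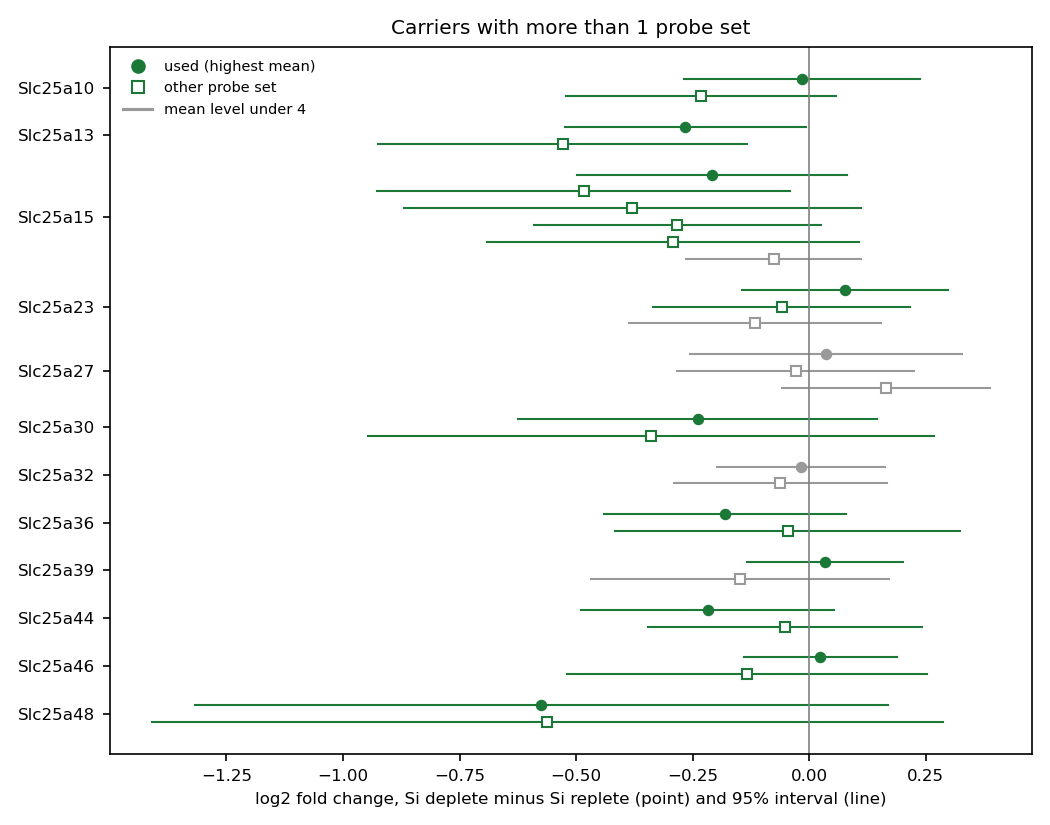
Difference in log2 level between Si deplete and Si replete kidneys for every probe set of the 12 carriers with more than 1; points are estimates and lines 95% intervals from limma, 4 arrays per diet. Filled circles are the probe sets with the highest mean and open squares the others, in grey where the mean level is under 4; the 6 probe sets of Slc25a15 all lie below 0.

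Over the family, 12 members had more than 1 probe set, which added 18. Of these 18, 13 had the sign of the one used, 2 had an unadjusted p under 0.05 (1 each of Slc25a13 and Slc25a15) and 0 passed (limma). In 6 the mean level was under 4.

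The lowest levels were concentrated in 1 kidney. Si deplete replicate 1 was the lowest of the 8 arrays for 17 of the 39 members, or 43.6%, beside 21.4% of all named genes. It was the highest array for 5 members, beside 26.7% of all named genes. Averaged over the members, levels relative to all arrays were -0.18, -0.01, 0.03 and -0.06 in Si deplete rats 1 to 4, against 0.08, 0.03, 0.07 and 0.05 in Si replete rats 1 to 4. The 4 Si deplete means were the lower ones, though Si deplete replicate 3 and Si replete replicate 2 differed by less than 0.01. Over the 33 members with a mean of 4 or more the diets overlapped, with Si deplete replicate 3 at 0.046 and Si replete replicate 2 at 0.028. Without Si deplete replicate 1, 24 of the 39 members were still lower, beside 7297 of 14217 named genes. The median log2 fold change was then -0.06 in the family and -0.005 over all genes. At an unadjusted p under 0.05, 2 members were higher and 4 lower. No share of all named genes is given at this setting, so these counts cannot be set against the background.

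**Figure D4:**
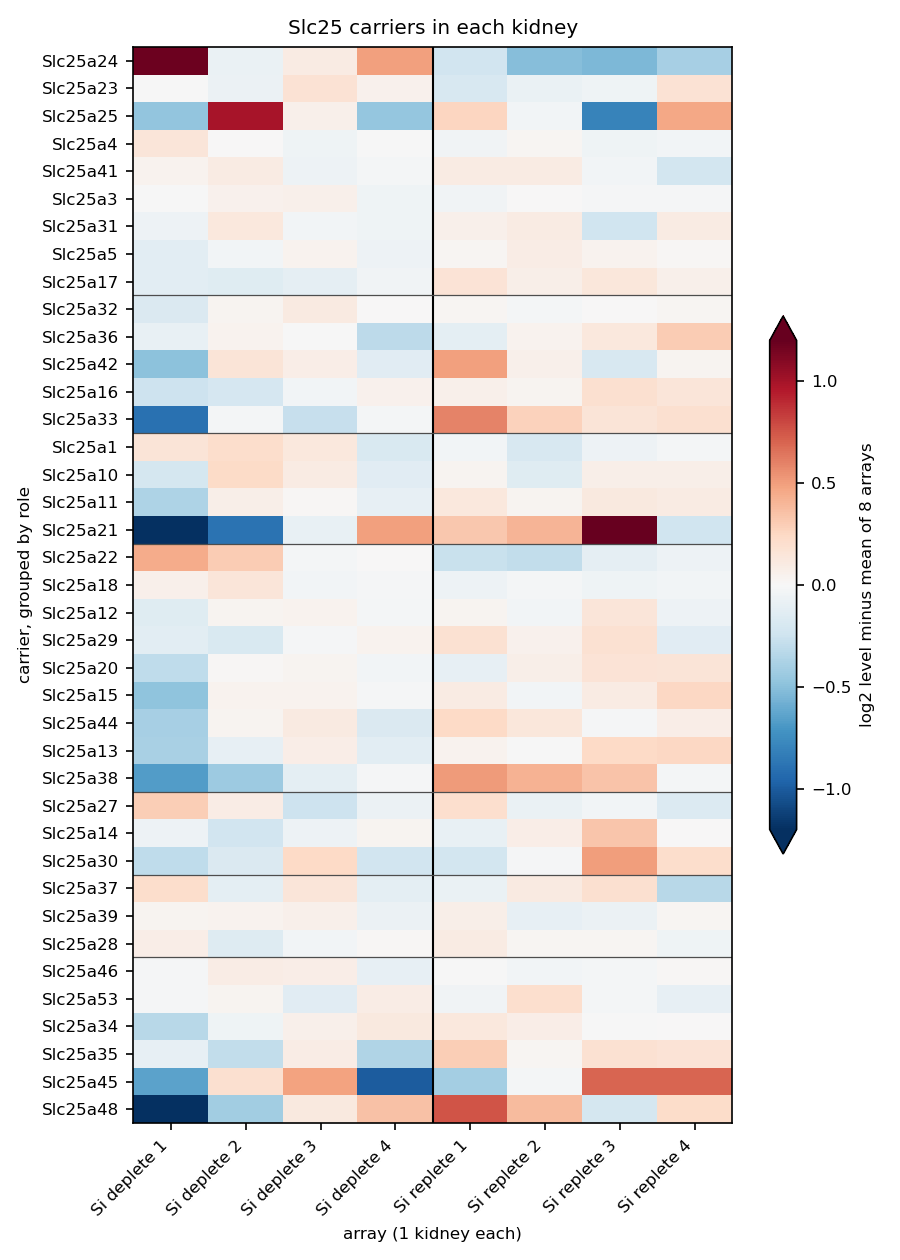
Log2 level of each Slc25 carrier in each kidney minus its mean over the 8 arrays (colour, scale ending at 1.2 either way), with Si deplete arrays on the left and roles separated by lines. Si deplete replicate 1 is blue in many rows, as the lowest array for 17 of 39 members.

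Markers of the proximal tubule had their lowest list mean in the same kidney. Relative to all arrays it was -0.48, 0.24, 0.17 and -0.11 in Si deplete rats, against -0.09, 0.09, -0.17 and 0.37 in Si replete rats 1 to 4. Of the 13 markers, 10 had lower means in Si deplete kidneys, the median log2 fold change was -0.14 and none passed. Without Si deplete replicate 1 the median was -0.01. Tubule injury markers had their highest list mean there, at 1.63, 0.37, 0.07 and 0.94 in Si deplete rats, against -0.19, -1.10, -1.13 and -0.60 in Si replete rats 1 to 4. Their median log2 fold change was 0.96 without that kidney.

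Mean levels of the markers of other cells were compared in the same way. At an unadjusted p under 0.05, 10.5% of all named genes were higher and 7.95% were lower. All 10 macrophage and myeloid markers had higher means in Si deplete kidneys, 5 of them at an unadjusted p under 0.05, with a median log2 fold change of 0.66. Their list mean was between -0.10 and 0.68 in Si deplete kidneys, against -0.73 to 0.16 in Si replete kidneys. All 6 lymphocyte markers had higher means (median 0.43, 2 at an unadjusted p under 0.05), although 5 of them had a mean level under 4. The list mean lay between -0.17 and 0.44 in Si deplete kidneys, against -0.42 to -0.12 in Si replete kidneys. Of 9 fibroblast and mural cell markers, 7 had higher means and 4 an unadjusted p under 0.05, all higher. The median was 0.17, or 0.34 without Si deplete replicate 1. Col1a1, a chain of fibrillar collagen, had the highest value (1.80, limma adjusted p = 0.166), and the list mean was between -0.20 and 0.79 in Si deplete kidneys, against -0.42 to 0.03 in Si replete kidneys. All 5 glomerulus markers had lower means (median -0.57, 2 at an unadjusted p under 0.05), with a list mean between -0.79 and 0.13 in Si deplete kidneys, against -0.04 to 0.52 in Si replete kidneys. Of 7 collecting duct markers, 6 had lower means (median -0.14, or -0.22 without Si deplete replicate 1). Of 8 markers of the thick ascending limb and distal tubule, 5 had lower means (median -0.04, or 0.003 without that kidney). So had 3 of 6 endothelium markers (median 0.02, or 0.16 without that kidney) and 4 of 7 adipocyte markers (median -0.10, or 0.04 without it). None of these markers passed (limma, adjusted p of 0.166 or more). The part of tubule, immune, stromal or glomerular cells, or of injury, in the carriers' levels was not tested.

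**Figure D5:**
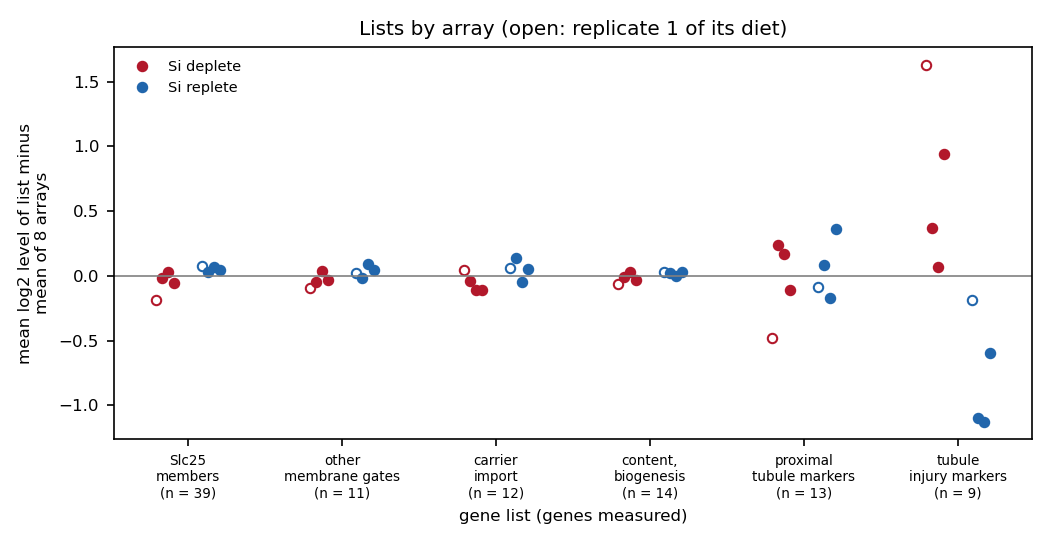
Mean log2 level of each gene list in each kidney minus its mean over the 8 arrays, Si deplete (red, left) and Si replete (blue, right), with open points for replicate 1 of each diet. The Slc25 members lie between -0.18 and 0.08, with Si deplete replicate 1 lowest both there and in the proximal tubule markers (-0.48), and highest in the tubule injury markers (1.63).

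Of 11 genes for other routes across the mitochondrial membranes, 8 had lower and 3 had higher means in Si deplete kidneys. Of the 8, 2 were lower at an unadjusted p under 0.05, beside 7.95% of all named genes. The median log2 fold change was -0.08, with none passing. Those 2 form the carrier that brings pyruvate into mitochondria. Mpc1 was at 11.67, 11.97, 11.99 and 12.04 in Si deplete rats, against 12.20, 12.26, 12.22 and 12.27 in Si replete rats 1 to 4. The difference was -0.32 (SE 0.09, limma adjusted p = 0.209). Mpc2, its partner, was at 11.70, 12.08, 12.05 and 12.01 in Si deplete rats, against 12.21, 12.26, 12.20 and 12.18 in Si replete rats 1 to 4. The difference was -0.25 (SE 0.10, limma adjusted p = 0.28). The diets did not overlap for either, nor for Vdac1, the main pore of the outer membrane (-0.17, limma adjusted p = 0.356). In all, 4 of the 11 had every Si deplete array lower, beside 5.49% of all named genes, and 1, the calcium channel Mcu (0.18), had every one higher, beside 6.45%.

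The 5 measured relatives of the family with other symbols did not reach an unadjusted p under 0.05. Ucp2, an uncoupling protein found in many tissues, had a log2 fold change of 0.19 (SE 0.19), and Mtch1 and Mtch2, carrier-like proteins of the outer membrane, had 0.14 and -0.03. Ucp1, the uncoupling protein of brown fat, had one of 0.19 (SE 0.34), at levels of 1.21 to 3.12 in Si deplete kidneys, against 1.66 to 2.11 in Si replete kidneys, a dim range.

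The machinery that imports carriers into the inner membrane was measured by 12 genes, of which 10 were lower in Si deplete kidneys with a median log2 fold change of -0.12. At an unadjusted p under 0.05, 2 were lower and 1 was higher, beside 7.95% and 10.5% of all named genes, and none passed. Timm8b, a chaperone of the space between the membranes, had a difference of -0.27 (SE 0.09, limma adjusted p = 0.226) and its relative Timm8a1 one of -0.32 (SE 0.14, limma adjusted p = 0.331). Tomm40, the channel of the outer membrane, had one of 0.23 (SE 0.09, limma adjusted p = 0.293).

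Of 14 genes of mitochondrial content and biogenesis, 9 were lower, with a median log2 fold change of -0.04. Tfb1m and Tfb2m, factors for mitochondrial ribosomes and mitochondrial transcription, were lower by similar amounts. With Phb2 (-0.08), they were the 3 of the 14 with every Si deplete array lower, beside 5.49% of all named genes. Tfb1m was at 6.92, 7.08, 7.15 and 6.97 in Si deplete rats, against 7.34, 7.56, 7.24 and 7.30 in Si replete rats 1 to 4. This is a difference of -0.33 (SE 0.09, limma adjusted p = 0.204). Tfb2m was at 9.31, 9.54, 9.68 and 9.58 in Si deplete rats, against 9.84, 9.93, 9.74 and 9.92 in Si replete rats 1 to 4, a difference of -0.33 (SE 0.10, limma adjusted p = 0.21). Nrf1, a transcription factor for nuclear genes of mitochondria, had a difference of 0.34 (SE 0.13, limma adjusted p = 0.271). All other genes of the list, Cs, Tfam and Ppargc1a among them, lay between -0.12 (Gabpa) and 0.08 (Ppargc1b).

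Of 7 enzymes of the malate-aspartate shuttle and citrate metabolism, 0 reached an unadjusted p under 0.05. The smallest p-values were those of Got2 (0.19), Mdh1 (-0.15) and Got1 (-0.21), as log2 fold changes. Among 12 enzymes of glycine, ornithine and haem metabolism in mitochondria, 1 did, Alas2. Oat, which uses the ornithine that Slc25a15 exchanges, and Gcsh, of the glycine cleavage system, had log2 fold changes of -0.18 and -0.21 (adjusted p of 0.391 and 0.395 from limma).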

How the data were processed

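Kidney RNA of 4 Si deplete and 4 Si replete rats was measured on Affymetrix GeneChip Rat Genome arrays. For 31099 probe sets the authors deposited log2 values, computed by gcRMA with m-estimator summaries (GCRMA 2.36.0 in the submitters' processing notes). Background correction and scaling between arrays are therefore the authors', and small differences depend on them.

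The 57 control probe sets were left out. Diets were compared over 31042 probe sets with limma 3.58.1 in R 4.3.3 (lmFit and eBayes), Si deplete minus Si replete, without covariates, as the paper's modified T-statistics. The threshold was a Benjamini-Hochberg adjusted p of 0.1. Single values were compared by exact 2-sided permutation over 70 arrangements. Each array holds 1 rat, and their number limits the precision. Shares over named genes use the probe set with the highest mean of 14217 genes. Gene symbols are those of the platform annotation, where 39 of 39 members matched RefSeq by Entrez ID.

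The members, role groups, lists and markers were chosen with earlier results of these data known. Slc25a24 and Slc25a38 were already known to stand out, so their p-values are not independent evidence. The rule for naming took these 2 carriers, the 10 smallest p-values in each direction, those whose diets did not overlap, and the main phosphate and nucleotide carriers with their relatives, and up to 3 genes of each pathway list by smallest p; the other members were added so that all are described. The 4 pairs of relatives were added later. Same-numbered arrays of both diets had deviations correlated at -0.088 to 0.0904, and were not treated as pairs. The paper states that each day of killing took a rat from every group. The labels name no day, so a pairing by day could not be followed. The limma fit was checked on simulated data with independent noise and changes larger than that of any member. The rule for no overlap and the q-value were checked on known answers. The permutation test, lists and promoter matches were not part of this check. The results were recomputed with array weights, with a robust prior, with an intensity trend, without probe sets of a mean under 4, after subtracting array medians, after quantile normalization, with a replicate block, with probe sets averaged per gene, at a threshold of 0.05, with Storey's q-value and without each array in turn.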

Additional observations from a re-analysis of the deposited data

Results flagged for a closer look

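In each diet the 4 arrays of every member were searched for 1 array far from the other 3, with a gap above 0.83 of the group's range. Of 78 groups 4 had such an array, and chance alone gives about 1 in 20. Slc25a15 was at 10.47 in Si deplete replicate 1, below 10.93 to 10.98 in the other Si deplete kidneys. Slc25a10 was at 11.71 in Si replete replicate 2, below 11.90 to 11.93 in the other Si replete kidneys. Slc25a31, with a mean under 4, was at 2.05 in Si deplete replicate 2, above 1.87 to 1.89 in the other Si deplete kidneys, and at 1.69 in Si replete replicate 3, below 1.99 to 2.03 in the other Si replete kidneys.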

How the results depend on the processing

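No member passed under any of the alternatives (limma, adjusted p or q of 0.135 or more), and the counts at an unadjusted p under 0.05 were 2 to 3 higher and 4 to 7 lower. With the replicate block they were 2 higher and 7 lower, and the block changed no call. The labels do not say what the replicate numbers stand for. Of the 8 arrays, 4 correlated best with their own number. Members with every Si deplete array lower became 4 with medians subtracted and 2 to 6 with single arrays left out. Those with every Si deplete array higher became 5 with quantile normalization. No share of all named genes is given for these settings, so the counts cannot be set against the background. Signs turned only in members with a log2 fold change between -0.02 and 0.08. With medians subtracted, which moved the median of all genes to -0.06, Slc25a3 was at -0.029, Slc25a4 at -0.0107, Slc25a27 at -0.0217, Slc25a39 at -0.0234, Slc25a41 at -0.0274 and Slc25a46 at -0.0327. With quantile normalization, Slc25a10 was at 0.0265, Slc25a31 at 0.0111 and Slc25a53 at 0.00983. With array weights, Slc25a10 was at 0.0233, Slc25a27 at -0.00968 and Slc25a32 at 0.0116. With probe sets averaged per gene, Slc25a23 was at -0.0325, Slc25a39 at -0.0574 and Slc25a46 at -0.0542. With single arrays left out, the ranges were -0.092 to 0.0549 for Slc25a10, -0.26 to 0.23 for Slc25a25, -0.0571 to 0.12 for Slc25a27, -0.092 to 0.0224 for Slc25a31, -0.0542 to 0.0395 for Slc25a32, -0.0379 to 0.14 for Slc25a37, -0.0377 to 0.067 for Slc25a41, -0.00113 to 0.0627 for Slc25a46 and -0.0502 to 0.0496 for Slc25a53. Without a change of sign, single arrays moved Slc25a1 between 0.11 and 0.24, Slc25a11 between -0.24 and -0.10, Slc25a14 between -0.22 and -0.08, Slc25a20 between -0.20 and -0.06, Slc25a34 between -0.16 and -0.01, Slc25a36 between -0.25 and -0.10, Slc25a42 between -0.29 and -0.06 and Slc25a44 between -0.29 and -0.12. The cause was not tested. The 6 members with a mean under 4 are dim, and there a difference may be understated.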
